A study of Mus musculus with 12 samples.

Results

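The genes described here are 7 transcription factors of the early heart, Gata4, Gata5 and Gata6, Mef2a, Mef2c and Mef2d, and Srf. They were taken by symbol with no filter on their values, but the set was chosen with earlier results of these data known. All 7 were found among the 14063 gene symbols of the expression table. Each was followed in all 12 sequenced cardiac precursor cells (CPs). The study picked single cells from the heart-forming region of CD1 mouse embryos, amplified their cDNA by PCR and sequenced 3 cells in each of 4 subpopulations. At the Early Headfold (EHF) stage these were EHF Nkx2-5+/Tbx5+ CPs and EHF Nkx2-5+ CPs, and at the Early Allantoic bud (EB) stage they were EB Tbx5+ CPs and, as their counterpart, EB Nkx2-5+ CPs. The labels name no engineered allele and no agent for the embryos, and the names give the markers that PCR detected in the same cDNA. By that PCR, candidate CPs also held Cfc1, which encodes a Nodal co-receptor, and lacked Sox17, of endoderm, and Sox2, of neural ectoderm. The question set to these cells was how the earliest precursors of the first heart field differ from their neighbours as Nkx2-5 and Tbx5 come on.

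GATA factors are zinc finger proteins that bind short DNA sites around the letters GATA, and Gata4, Gata5 and Gata6 are the members of the family known from heart mesoderm and endoderm. MEF2 proteins and SRF share the MADS domain, and bind A/T-rich sites that resemble each other. MEF2 factors are held back by class II histone deacetylases and released by kinases, while SRF turns on muscle genes with myocardin-related cofactors and immediate early genes with ternary complex factors. In the mouse, loss of Gata4, of Gata4 and Gata6 together, of Mef2c or of Srf disturbs the forming heart.

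The values are RPM, the reads of a gene per 1000000 aligned reads, not corrected for gene length, so levels were compared between cells for 1 gene and not between genes. Between 12475588 and 37905007 reads were aligned per cell. A gene listed at 0 can hold up to 3 reads, which are worth 0.0791 to 0.240 RPM, and this limit covers counting error only because PCR copies are not independent molecules. Since no label ties a cell to an embryo, each subpopulation counted as 1 sample and no test was made. Every comparison is a log2 difference of mean RPM with 10 RPM added to both means, read against the share of all 5031 genes averaging at least 10 RPM that lay as far apart. The 10 RPM that are added make the differences of low genes small. In a sample of this kind a lower mean can come from fewer cells with the transcript or from less of it per cell, so the value of every cell is given. EHF Nkx2-5+/Tbx5+ cell 3 had the fewest genes at 1 RPM or more, 2682 against at most 5650 in any cell, and its Gapdh was at 14.3 RPM, with 113 to 311 RPM elsewhere. Tbx5 was at 60.3, 3.69 and 8.69 RPM in EHF Nkx2-5+/Tbx5+ CPs and at 0 in the EHF Nkx2-5+ CPs. It reached no more than 0.335 RPM in the EB Tbx5+ CPs, whose label therefore rests on the PCR. Nkx2-5 was at 262, 65.1 and 12.2 RPM in EHF Nkx2-5+/Tbx5+ CPs and at 201, 242 and 34.7 RPM in EHF Nkx2-5+ CPs. It was at 0 in the EB Tbx5+ CPs and at 33.6, 41.9 and 1.48 RPM in EB Nkx2-5+ CPs. EB Nkx2-5+ cell 3, with the least Nkx2-5 of the cells so labelled, had the most Gata4 and Srf of the EB stage. Cfc1 was at 0.0272 RPM in EB Tbx5+ cell 1 and at 0.0720 and 0.0882 RPM in EB Nkx2-5+ cells 1 and 2, with 5.13 to 189 RPM elsewhere, and the first and last of these cells had the most Mef2a and the most Gata6 of the EB stage.

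Gata4 (chr14:63198914-63271712 in GRCm38.p6, minus strand) encodes the GATA factor needed for the heart tube to form at the midline. The EHF Nkx2-5+/Tbx5+ CPs had 291, 314 and 55.4 RPM. The EHF Nkx2-5+ CPs had 9.01, 0.0564 and 0.721 RPM, the EB Tbx5+ CPs 8.22, 0 and 11.5 RPM, and the EB Nkx2-5+ CPs 14.6, 6.57 and 219 RPM. All cells of the EHF Nkx2-5+/Tbx5+ subpopulation thus lay above all EHF Nkx2-5+ and EB Tbx5+ cells, and EB Nkx2-5+ cell 3 was the single cell outside it that reached their range. The means were 220 RPM in EHF Nkx2-5+/Tbx5+ CPs and 3.26 RPM in EHF Nkx2-5+ CPs, a log2 difference of 4.12, and against the 6.57 RPM of EB Tbx5+ CPs it was 3.80. EHF Nkx2-5+ CPs stood lower than EB Nkx2-5+ CPs, whose mean was 80.1 RPM (log2 difference -2.76). This last value rested on EB Nkx2-5+ cell 3, without which it was -0.63. Without the same cell the difference of EB Tbx5+ from EB Nkx2-5+ CPs was -0.31 in place of -2.44, and that of EHF Nkx2-5+/Tbx5+ CPs from the remaining 9 cells was 3.82 in place of 2.52.

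Gata5 (chr2:180325088-180335503, minus strand) encodes the GATA factor known from early endocardial and endodermal cells, and was nearly restricted to cells of the EHF stage. It stood at 172, 119.7 and 4.96 RPM in EHF Nkx2-5+/Tbx5+ CPs and at 181, 0.0282 and 0.160 RPM in EHF Nkx2-5+ CPs. At the EB stage it stood at 0, 0 and 0.365 RPM in Tbx5+ CPs and at 0.468, 0.132 and 0.0279 RPM in Nkx2-5+ CPs. The highest EB cell thus held 13 reads, while 4 of the 6 EHF cells held 173 reads or more. EHF Nkx2-5+/Tbx5+ CPs were above EB Tbx5+ CPs in every cell, with means of 99.0 and 0.122 RPM and a log2 difference of 3.43. EHF Nkx2-5+ CPs averaged 60.5 RPM against 0.209 RPM in EB Nkx2-5+ CPs, a log2 difference of 2.79 that was carried by EHF Nkx2-5+ cell 1 and was -0.016 without it. The same cell set the comparison inside the EHF stage. EHF Nkx2-5+/Tbx5+ CPs were only 0.63 above EHF Nkx2-5+ CPs on the log2 scale with all cells, 3.43 without EHF Nkx2-5+ cell 1 and 1.15 without EHF Nkx2-5+/Tbx5+ cell 3. Against the remaining 9 cells, leaving out EHF Nkx2-5+ cell 1 moved the difference to 3.43 from 1.85 with all cells.

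Gata6 (chr18:11052510-11085636, plus strand), the partner of Gata4 in early heart and endoderm, was the 1 member above 1 RPM in all 12 cells. EHF Nkx2-5+/Tbx5+ CPs had 258, 625 and 2315 RPM, and EHF Nkx2-5+ CPs 119.6, 4.66 and 33.0 RPM. EB Tbx5+ CPs had 328, 8.82 and 127 RPM, and EB Nkx2-5+ CPs 7.24, 721 and 83.8 RPM. The EHF subpopulations did not overlap, whereas 1 EB Tbx5+ cell and 1 EB Nkx2-5+ cell reached the EHF Nkx2-5+/Tbx5+ range. The log2 difference of EHF Nkx2-5+/Tbx5+ from EHF Nkx2-5+ CPs was 4.11, with means of 1066 and 52.4 RPM. Against EB Tbx5+ CPs, at 154 RPM, it was 2.71, and without EHF Nkx2-5+/Tbx5+ cell 3 it was 1.46. Without that cell the difference from the remaining 9 cells was 1.42 in place of 2.67. EHF Nkx2-5+ CPs were -2.17 from EB Nkx2-5+ CPs, which averaged 271 RPM. The sign of this value hung on EB Nkx2-5+ cell 2, without which it was 0.17, and without EHF Nkx2-5+ cell 1 it was -3.28. EB Tbx5+ CPs lay -0.77 from EB Nkx2-5+ CPs, and this value moved between -1.85 without EB Tbx5+ cell 1 and 1.57 without EB Nkx2-5+ cell 2. It was -1.33 without EB Nkx2-5+ cell 1 and -1.19 without EB Nkx2-5+ cell 3.

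**Figure D1:**
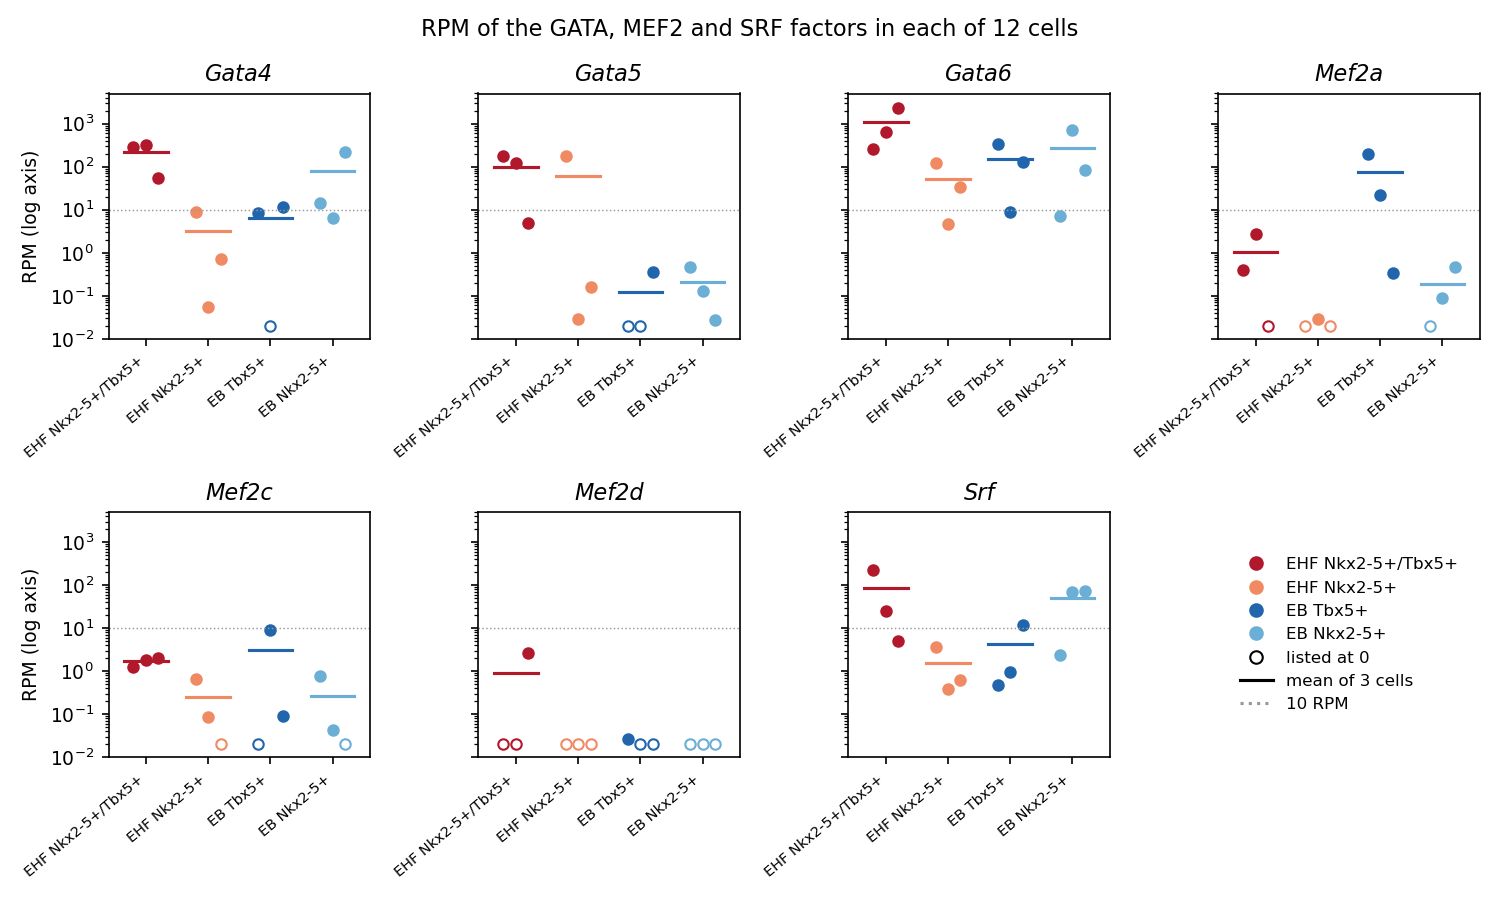
RPM of each factor on a logarithmic axis, with 1 point per cell, open points for cells listed at 0 (drawn at the bottom of the axis) and a bar for the mean of the 3 cells of a subpopulation where it lies above the axis floor. Gata4 lay between 55.4 and 314 RPM in EHF Nkx2-5+/Tbx5+ CPs, Gata5 stayed at or under 0.468 RPM in all EB cells, and Mef2c and Mef2d stayed under 10 RPM in every cell.

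The proportions in which a cell held the 3 GATA genes also differed between cells of 1 subpopulation. The share of each gene in the summed Gata4, Gata5 and Gata6 reads of a cell depends on transcript length, which is the same in every cell, so shares can be set between cells. Gata4 made up 40.3% (Wilson 95% interval 39.8 to 40.9%, for counting error only), 29.7% and 2.33% of these reads in the EHF Nkx2-5+/Tbx5+ cells and 2.91%, 1.19% and 2.13% in the EHF Nkx2-5+ cells. It made up 2.45%, 0% and 8.30% in the EB Tbx5+ cells and 65.4%, 0.902% and 72.3% in the EB Nkx2-5+ cells. Gata6 made up 91.4% or more in every EB Tbx5+ cell, and 97.4% or more in EHF Nkx2-5+/Tbx5+ cell 3, EHF Nkx2-5+ cells 2 and 3 and EB Nkx2-5+ cell 2. Gata5 was the most abundant of the 3 by reads in EHF Nkx2-5+ cell 1 alone, at 58.5%. All 3 genes held over 10% of the reads in just 2 of the 12 cells, EHF Nkx2-5+/Tbx5+ cells 1 and 2, where Gata5 held 23.9% and 11.3%. The third cell of that subpopulation had Gata4 at 55.4 RPM beside 2315 RPM of Gata6.

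**Figure D2:**
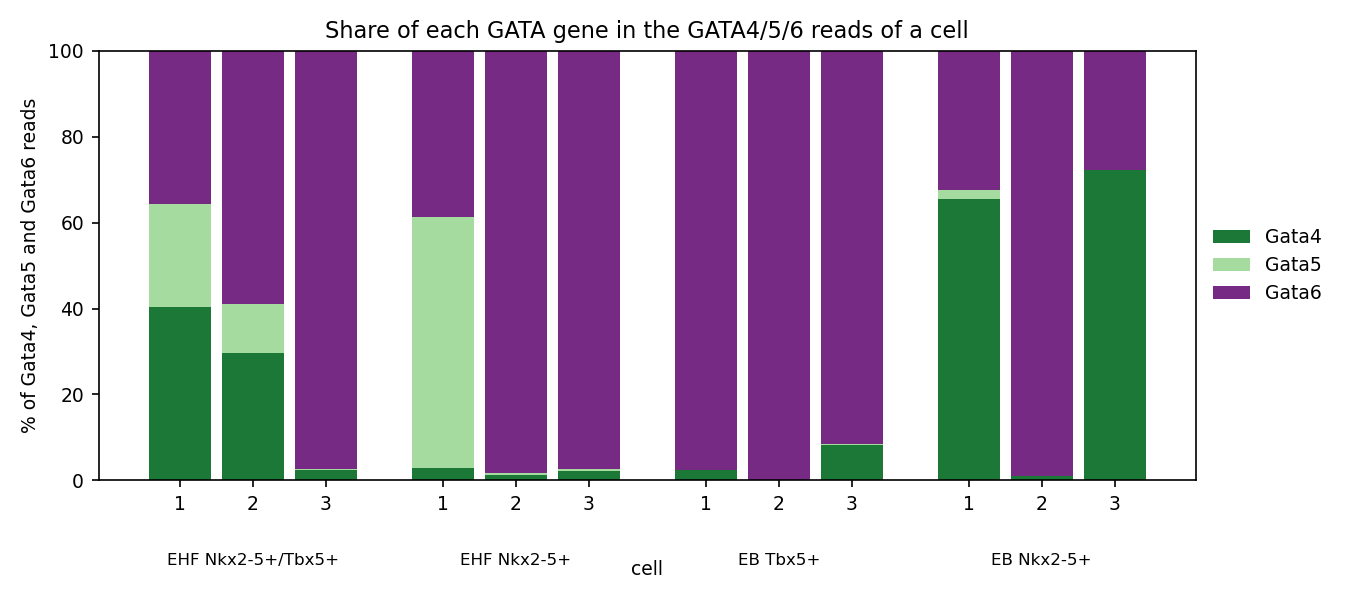
Percent of the summed Gata4, Gata5 and Gata6 reads of each cell that came from each gene, cells 1 to 3 of the 4 subpopulations from left to right. EHF Nkx2-5+/Tbx5+ cells 1 and 2 held all 3 genes, with Gata4 at 40.3% and 29.7%, and the 3 EB Tbx5+ cells held 91.4% or more Gata6.

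Among the other GATA genes, Gata1, of the red cell lineage, was at 0 in 11 cells and at 0.167 RPM in EB Nkx2-5+ cell 3. Gata2, of blood progenitors and endothelium, stood at 0.0264, 4.86 and 0.0287 RPM in EHF Nkx2-5+/Tbx5+ CPs and at 73.7, 0.113 and 0.401 RPM in EHF Nkx2-5+ CPs. It stood at 0.0544, 0.0276 and 18.8 RPM in EB Tbx5+ CPs and at 0.216, 105 and 1.84 RPM in EB Nkx2-5+ CPs. Gata3 was at 45.9, 0.0820 and 0.688 RPM in EHF Nkx2-5+/Tbx5+ CPs and at 1.25, 481 and 4.97 RPM in EHF Nkx2-5+ CPs, with no more than 5.69 RPM in any EB cell. The cell with the most Gata3, EHF Nkx2-5+ cell 2, held 2 reads of Gata4 and 1 read of Gata5. Mef2b was at 0 in all 12 cells. Gata2 and Gata3, the 2 of these 4 relatives averaging at least 10 RPM, lay -1.47 and -1.34 from the remaining 9 cells in EHF Nkx2-5+/Tbx5+ CPs. Both values rested on 1 cell, Gata3 being at 1.13 without EHF Nkx2-5+ cell 2 and Gata2 at -0.91 without EB Nkx2-5+ cell 2. Gata3 was also at -2.64, -0.96 and -0.98 without EHF Nkx2-5+/Tbx5+ cells 1, 2 and 3 in turn.

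Of 7 listed GATA cofactors, 3 had a mean of at least 10 RPM. Nfatc4, a calcineurin-dependent partner of GATA factors, stood at 174, 2.10 and 0.344 RPM in EHF Nkx2-5+/Tbx5+ CPs, against at most 26.9 RPM in the remaining 9 cells, a log2 difference of 2.18 that was -0.44 without cell 1. Med1, a Mediator subunit that GATA factors bind, stood at 96.6, 58.0 and 0 RPM in the same cells, against at most 17.5 RPM in the remaining 9 (log2 difference 1.82, and 1.16 without cell 1). These 2 were at least 2-fold higher in EHF Nkx2-5+/Tbx5+ CPs against the other 9, where 19.7% of all genes were, and the third, the zinc finger cofactor Zfpm1 (log2 difference -0.56), was not. Nfatc4 and Med1 averaged 5.24 and 7.40 RPM in the remaining 9 cells and passed the 10 RPM minimum only through EHF Nkx2-5+/Tbx5+ CPs. Being higher there was thus a condition of being counted. Zfpm2, the cofactor that Gata4 needs in the later heart, was at 1.38 RPM in EHF Nkx2-5+/Tbx5+ cell 3, at 0.866 RPM in EHF Nkx2-5+ cell 1 and at 0 in the other 10 cells. The acetyltransferase genes Ep300 and Crebbp were above 1 RPM in 1 and 2 cells. Jarid2, a repressor of cardiac genes, was at most 1.09 RPM in EHF Nkx2-5+/Tbx5+ CPs and 0.735 RPM in EB Tbx5+ CPs, against 40.3, 10.2 and 4.49 RPM in EHF Nkx2-5+ CPs and 55.0, 0.970 and 0.892 RPM in EB Nkx2-5+ CPs.

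The MEF2 genes were low, and only Mef2a passed a mean of 10 RPM. Mef2a (chr7:67231163-67376456, minus strand) stood at 202, 21.7 and 0.335 RPM in EB Tbx5+ CPs and at 0, 0.0882 and 0.474 RPM in EB Nkx2-5+ CPs, with means of 74.6 and 0.187 RPM. It stood at 0.396, 2.68 and 0 RPM in EHF Nkx2-5+/Tbx5+ CPs and at 0, 0.0282 and 0 RPM in EHF Nkx2-5+ CPs. EB Tbx5+ cell 1 thus held 88.7% of the Mef2a RPM of all 12 cells, and EB Tbx5+ cell 3 lay inside the range of the other subpopulations. The log2 difference of EB Tbx5+ from EB Nkx2-5+ CPs was 3.05 with all cells and 1.05 without EB Tbx5+ cell 1. EHF Nkx2-5+/Tbx5+ CPs were -2.94 from EB Tbx5+ CPs and -1.66 from the remaining 9 cells, and without EB Tbx5+ cell 1 these values were -0.93 and -0.22. Mef2a averaged 1.02 RPM in EHF Nkx2-5+/Tbx5+ CPs and 0.0094 RPM in EHF Nkx2-5+ CPs. It passed the 10 RPM minimum only through EB Tbx5+ CPs. Standing higher there than elsewhere was thus a condition of being among the genes that give the background shares. The 300 bases around the Mef2a start in RefSeq (GRCm38.p6) held the only MEF2 site found among the members. MEF2 sites were searched on both strands, and 3.19% of the 32851 promoters of that length held one. The stretch of 30 bases around it, at chr7:67372841-67372870 on the minus strand, is shown for its place across the start, in the first bases of the transcript, with the site in capitals.

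Mef2a start: ggcctgactcCTAAAAATAGccccggtgtg

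Mef2c (chr13:83504017-83667079, plus strand) encodes the MEF2 factor that the looping heart and the second heart field need. It was at 1.24, 1.80 and 2.07 RPM in EHF Nkx2-5+/Tbx5+ CPs and at 0.657, 0.0846 and 0 RPM in EHF Nkx2-5+ CPs. It was at 0, 9.10 and 0.0913 RPM in EB Tbx5+ CPs and at 0.756, 0.0441 and 0 RPM in EB Nkx2-5+ CPs. The 3 EHF Nkx2-5+/Tbx5+ cells lay close together and above 8 of the other 9, the exception being EB Tbx5+ cell 2. They held 185 reads in all (exact Poisson 95% interval 159 to 214), against 25 reads (16.2 to 36.9) in EHF Nkx2-5+ CPs, and both intervals cover counting error only. With 10 RPM added the log2 difference was 0.19, and with 1 RPM added it was 1.12. Mef2d (chr3:88141941-88172091, plus strand) was at 2.70 RPM, 94 reads, in EHF Nkx2-5+/Tbx5+ cell 3, at 0.0272 RPM, 1 read, in EB Tbx5+ cell 1, and at 0 in the other 10 cells.

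Mef2d shares its 3′ end with 1700113A16Rik, an antisense gene of the opposite strand, and the Nextera libraries do not keep the strand. 1700113A16Rik stood at 0.818, 55.2 and 0.0287 RPM in EHF Nkx2-5+/Tbx5+ CPs and at 0 in the EHF Nkx2-5+ CPs. It stood at 14.8, 0 and 26.9 RPM in EB Tbx5+ CPs and at 29.7, 10.1 and 28.9 RPM in EB Nkx2-5+ CPs. All 6 cells in which it reached 1 RPM had Mef2d under 1 RPM, so the level of Mef2d is uncertain, because reads of the overlap cannot be told apart. 1010001N08Rik, which runs from the start of Gata6 on the opposite strand, was at 76.9, 97.5 and 0 RPM in EHF Nkx2-5+/Tbx5+ CPs and at 23.6, 0 and 0 RPM in EHF Nkx2-5+ CPs. It was at 0, 0 and 31.7 RPM in EB Tbx5+ CPs and at 0 in EB Nkx2-5+ CPs, so 4 cells had it at 1 RPM or more, beside 119.6 to 625 RPM of Gata6. Gata5os over Gata5 and Lysmd4 over Mef2a stayed under 1 RPM in all cells.

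Of 10 listed MEF2 regulators, 5 had a mean of at least 10 RPM. Hdac4, a class II deacetylase that represses MEF2, stood at 0.0264, 114 and 0.660 RPM in EHF Nkx2-5+/Tbx5+ CPs, and in the remaining 9 cells it passed 1 RPM in EB Nkx2-5+ cell 3 alone, at 55.5 RPM. Its difference of 1.57 was the only one of the 5 past 2-fold, where 19.7% of all genes were higher, and it was -0.65 without EHF Nkx2-5+/Tbx5+ cell 2 and 2.27 without EB Nkx2-5+ cell 3. Hdac4 averaged 6.17 RPM in the remaining 9 cells and passed the 10 RPM minimum only through EHF Nkx2-5+/Tbx5+ CPs. With any 1 cell left out, settings added after the values were seen, 0 to 2 of the 5 were higher and 0 to 1 lower. Mapk14, a kinase that activates MEF2, stood at 108, 198 and 2.24 RPM in EHF Nkx2-5+/Tbx5+ CPs and at 75.0, 4.82 and 0.721 RPM in EHF Nkx2-5+ CPs. It stood at 235, 9.43 and 334 RPM in EB Tbx5+ CPs and at 26.0, 510 and 73.2 RPM in EB Nkx2-5+ CPs, and the groups overlapped (log2 difference -0.42). Mapk7, a second MEF2 kinase, and Hdac5, a second class II deacetylase, lay -0.87 and -0.51 from the remaining 9 cells, and the methyltransferase Carm1 lay at 0.91. In EHF Nkx2-5+ CPs 4 of these 5 were at least 2-fold lower than in EB Nkx2-5+ CPs, with Mapk14 at -2.53, where 35.9% of all genes were. Each of the 4 came short of 2-fold without 1 EB Nkx2-5+ cell. Mapk14 was at -0.69 without cell 2, Hdac4 and Mapk7 were at -0.0026 and -0.71 without cell 3, and Carm1 was at -0.90 without cell 1. Hdac7 was at most 48.8 RPM, in EB Tbx5+ cell 1, the cell with the most Mef2a. Hdac9 was at 0 or 1 read in every cell.

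Srf (chr17:46546838-46558267, minus strand) encodes the MADS factor that binds the CArG box of cytoskeletal and muscle genes. It stood at 230, 25.1 and 4.96 RPM in EHF Nkx2-5+/Tbx5+ CPs and at 3.73, 0.395 and 0.641 RPM in EHF Nkx2-5+ CPs. It stood at 0.490, 0.940 and 11.6 RPM in EB Tbx5+ CPs and at 2.38, 71.1 and 74.2 RPM in EB Nkx2-5+ CPs. The EHF subpopulations did not overlap, although the lowest EHF Nkx2-5+/Tbx5+ cell was close to the highest EHF Nkx2-5+ cell, and EB Tbx5+ cell 3 and 2 of the 3 EB Nkx2-5+ cells lay inside the EHF Nkx2-5+/Tbx5+ range. Means were 86.7 RPM in EHF Nkx2-5+/Tbx5+ CPs and 1.59 RPM in EHF Nkx2-5+ CPs, a log2 difference of 3.06. Against EB Tbx5+ CPs, at 4.34 RPM, it was 2.75. Cell 1 of the EHF Nkx2-5+/Tbx5+ CPs carried both, since without it they were 1.11 and 0.80, and the difference from the remaining 9 cells was -0.18 in place of 1.77. EHF Nkx2-5+ CPs lay -2.35 from EB Nkx2-5+ CPs, at 49.2 RPM, and EB Tbx5+ CPs lay -2.05 from them, and with any 1 cell left out these stayed between -2.83 and -2.01 and between -2.53 and -1.70.

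The Srf promoter held a pair of CArG boxes, both matched on both strands because the motif reads the same either way, and 1.63% of the 32851 promoters held at least 1. They lie from -82 to -73 and from -62 to -53, counted from the first transcribed base as 1. The stretch at chr17:46556215-46556244, minus strand, is exactly the pair and the 10 bases between, and is shown because the CArG box is the site that SRF proteins bind. Promoters were in the RefSeq table for 5 of the 7 members, all but Gata4 and Gata6, and none of the 5 held a GATA site on either strand (searched as AGATAA, with its other ending as AGATAG, with its other first base as TGATAA, and with both as TGATAG), which 29.8% of all promoters held.

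Srf: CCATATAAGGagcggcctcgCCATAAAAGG

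The SRF cofactors were mostly low. Myocd, the cardiac and smooth muscle cofactor of SRF, was at most 0.602 RPM, in EHF Nkx2-5+/Tbx5+ cell 3. Mkl1, a myocardin-related factor, was at 0, 36.8 and 1.03 RPM in EHF Nkx2-5+/Tbx5+ CPs, at 12.4, 0 and 0 RPM in EHF Nkx2-5+ CPs and at most 2.34 RPM in EB cells. Mkl2, its close relative, was at 230 RPM in EB Tbx5+ cell 1 and under 0.3 RPM in the other 11 cells. Elk1, a ternary complex factor, was at 1.98, 23.4 and 0.0287 RPM in EHF Nkx2-5+/Tbx5+ CPs and at 38.1 RPM in EB Nkx2-5+ cell 1, and its relatives Elk3 and Elk4 were at most 1.12 RPM. Fhl2, a LIM protein that binds SRF, was at 10.9 RPM in EHF Nkx2-5+/Tbx5+ cell 3 and under 1 RPM in the other 11 cells. Mkl2 alone of the 7 had a mean of at least 10 RPM, and EHF Nkx2-5+/Tbx5+ CPs lay -1.83 from the remaining 9 cells on the log2 scale, where 31.5% of all genes were at least 2-fold lower. Without EB Tbx5+ cell 1 this was -0.0033.

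Of 17 known SRF target genes, 10 had a mean of at least 10 RPM. Between EHF Nkx2-5+/Tbx5+ CPs and the remaining 9 cells, 6 of the 10 were at least 2-fold higher and 2 at least 2-fold lower, where 19.7% and 31.5% of all genes were, and their median was 1.30. The higher ones were cytoskeletal and muscle genes. Actc1, cardiac actin, stood at 67.0, 0.0820 and 2681 RPM in EHF Nkx2-5+/Tbx5+ CPs, against at most 39.4 RPM in the remaining 9 cells, and its reads can be shared with Acta1, Acta2 and Actg2, which are close copies. Actc1 averaged 5.01 RPM in the remaining 9 cells and passed the 10 RPM minimum only through EHF Nkx2-5+/Tbx5+ CPs. Tpm1, a tropomyosin, stood at 1646, 1563 and 11122 RPM in EHF Nkx2-5+/Tbx5+ CPs, while the remaining 9 cells ranged from 376 to 1246 RPM, with no overlap. Flna, a filamin, stood at 287, 289 and 3563 RPM in EHF Nkx2-5+/Tbx5+ CPs, while the remaining 9 ranged from 4.06 to 156 RPM, again with no overlap. The share of all genes lying above the remaining 9 cells in this way was not counted. The lower ones were the immediate early genes Fos and Egr1, at -3.37 and -1.88, and the highest cell of both was EHF Nkx2-5+ cell 2, with 7495 RPM of Fos and 248 RPM of Egr1, the cell with the lowest Srf. Without that cell Fos was at -0.42 and Egr1 at 0.0059, so no target was lower. In EHF Nkx2-5+/Tbx5+ cell 3, which had the most Actc1, Tpm1 and Flna, Srf was at 4.96 RPM, its lowest level in that subpopulation. Without this cell, a setting added after the values were seen, 4 targets were higher and 2 lower, and Actc1 was at 1.54, Tpm1 at 0.97, Flna at 2.04 and Cnn2 at 0.03 in place of 5.95, 2.54, 4.26 and 2.21. Without EHF Nkx2-5+/Tbx5+ cell 1 Myl9 was at -0.056 and Actb at 0.87, in place of 1.25 and 1.34.

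RefSeq promoters were at hand for 13 of these 17 targets, and 6 of the 13 held a CArG box. This is a description of a list that was drawn up from known SRF targets, for many of which the box is how they became known. The stretches of 30 bases, with the box in capitals and all in GRCm38.p6, show how the 6 central A/T bases vary between targets. They lie at chr2:114052903-114052932 (minus strand) for Actc1, chr8:123894829-123894858 (minus) for Acta1, chr11:120348566-120348595 (minus) for Actg1, chr10:79988534-79988563 (plus) for Cnn2, chr14:20929161-20929190 (plus) for Vcl and chr2:156775293-156775322 (plus) for Myl9.

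Actc1: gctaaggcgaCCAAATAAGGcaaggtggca
Acta1: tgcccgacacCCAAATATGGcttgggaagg
Actg1: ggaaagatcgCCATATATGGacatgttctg
Cnn2: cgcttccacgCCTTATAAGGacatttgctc
Vcl: cccactatgcCCTTATAAGGagcgccccgc
Myl9: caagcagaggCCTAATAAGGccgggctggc

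The targets with a box differed in their pattern across the cells. Actc1 and Cnn2 were highest in EHF Nkx2-5+/Tbx5+ cell 3, Cnn2 at 2330 RPM, whereas Actg1, a cytoplasmic actin, was lowest there, at 376 RPM, against 956 to 7727 RPM in the remaining 9 cells and 1600 and 2822 RPM in EHF Nkx2-5+/Tbx5+ cells 1 and 2. Cnn2, a calponin, and Vcl, vinculin, carry the same 10 letters, and Vcl stayed at or under 9.65 RPM in every cell. Myl9, a myosin light chain, was at 149, 38.6 and 0.0287 RPM in EHF Nkx2-5+/Tbx5+ CPs, at most 0.641 RPM in EHF Nkx2-5+ CPs, 107 RPM in EB Tbx5+ cell 1 and 73.8 RPM in EB Nkx2-5+ cell 1.

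**Figure D3:**
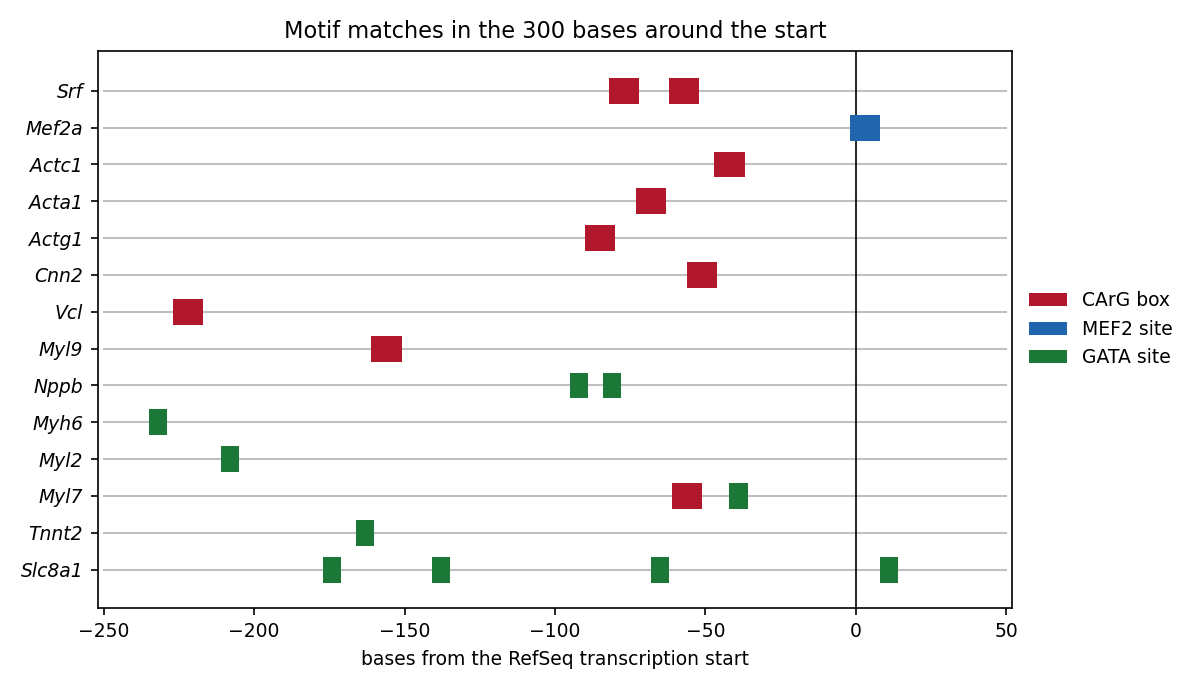
Matches of the CArG box, the MEF2 site and the GATA site in the 300 bases around the start of 14 genes, the members and targets with at least 1 match, by distance in bases from the RefSeq transcription start (vertical line). The Srf boxes lie from -82 to -53, and the MEF2 site of Mef2a crosses the start.

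Of 13 listed cardiac target genes of GATA or MEF2 factors, 7 had a mean of at least 10 RPM. Between EHF Nkx2-5+/Tbx5+ CPs and the remaining 9 cells, 6 of the 7 were at least 2-fold higher and none lower, where 19.7% and 31.5% of all genes were. Their median was 2.73 beside -0.27 over all genes. Myh6, Myh7, Tnnt2, Tnnc1 and Des averaged 0, 0, 0.0030, 0.0882 and 2.83 RPM in the remaining 9 cells. They passed the 10 RPM minimum only through EHF Nkx2-5+/Tbx5+ CPs, so being higher there was a condition of being counted. The count and the median are descriptions only. Tnnc1, cardiac troponin C, stood at 57.7, 12.4 and 101 RPM in EHF Nkx2-5+/Tbx5+ CPs, against at most 0.794 RPM in the remaining 9 cells. Tnnt2, cardiac troponin T, stood at 11.1, 0.191 and 2270 RPM, against at most 0.0272 RPM in the remaining 9. Tnnc1 was above the remaining 9 cells in all 3 EHF Nkx2-5+/Tbx5+ cells. Tnnt2 was so in cells 1 and 3, but its 0.191 RPM in cell 2 lay under 0.240 RPM. A 0 in EHF Nkx2-5+ cell 3 can hide that much, so these cells cannot be told apart. The share of all genes placed like Tnnc1 was not counted. The myosin heavy chains Myh6 and Myh7, close copies that can share reads, were at 1154 and 1056 RPM in EHF Nkx2-5+/Tbx5+ cell 3, at 2.14 and 3.06 RPM in cell 1 and at 0 in the other 10 cells. Myl7, the atrial myosin light chain, was in every cell, at 1125, 38.6 and 1219 RPM in EHF Nkx2-5+/Tbx5+ CPs and at 12.6 to 536 RPM in the remaining 9. Without EHF Nkx2-5+/Tbx5+ cell 3, chosen after the values were seen, 4 of the 7 were at least 2-fold higher, Tnnt2 was at 0.65, and Myh6 and Myh7 were at 0.15 and 0.21. Des, desmin, was at 2.08 with all cells and at -0.20 without EHF Nkx2-5+/Tbx5+ cell 1, and with any 1 cell left out 4 to 6 of the 7 were higher. Nppb, Myl2, Tnni3, Smyd1 and Slc8a1 stayed at or under 4.10 RPM in all cells.

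GATA sites were found in the promoters of 6 of the 12 cardiac targets with a RefSeq promoter, Nppb, Myh6, Myl2, Myl7, Tnnt2 and Slc8a1, where 29.8% of all promoters held one. A MEF2 site was found in 0 of the 12. This too describes a list drawn up from known targets. A CArG box was found in Myl7 alone, 9 bases before its GATA site. The stretch at chr11:5898816-5898845, minus strand, is shown because it holds a site of each kind, both in capitals, in the 1 such promoter whose gene was read in all 12 cells.

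Myl7: ctCCTTATTTGGgcctctgggTGATAAggc

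**Figure D4:**
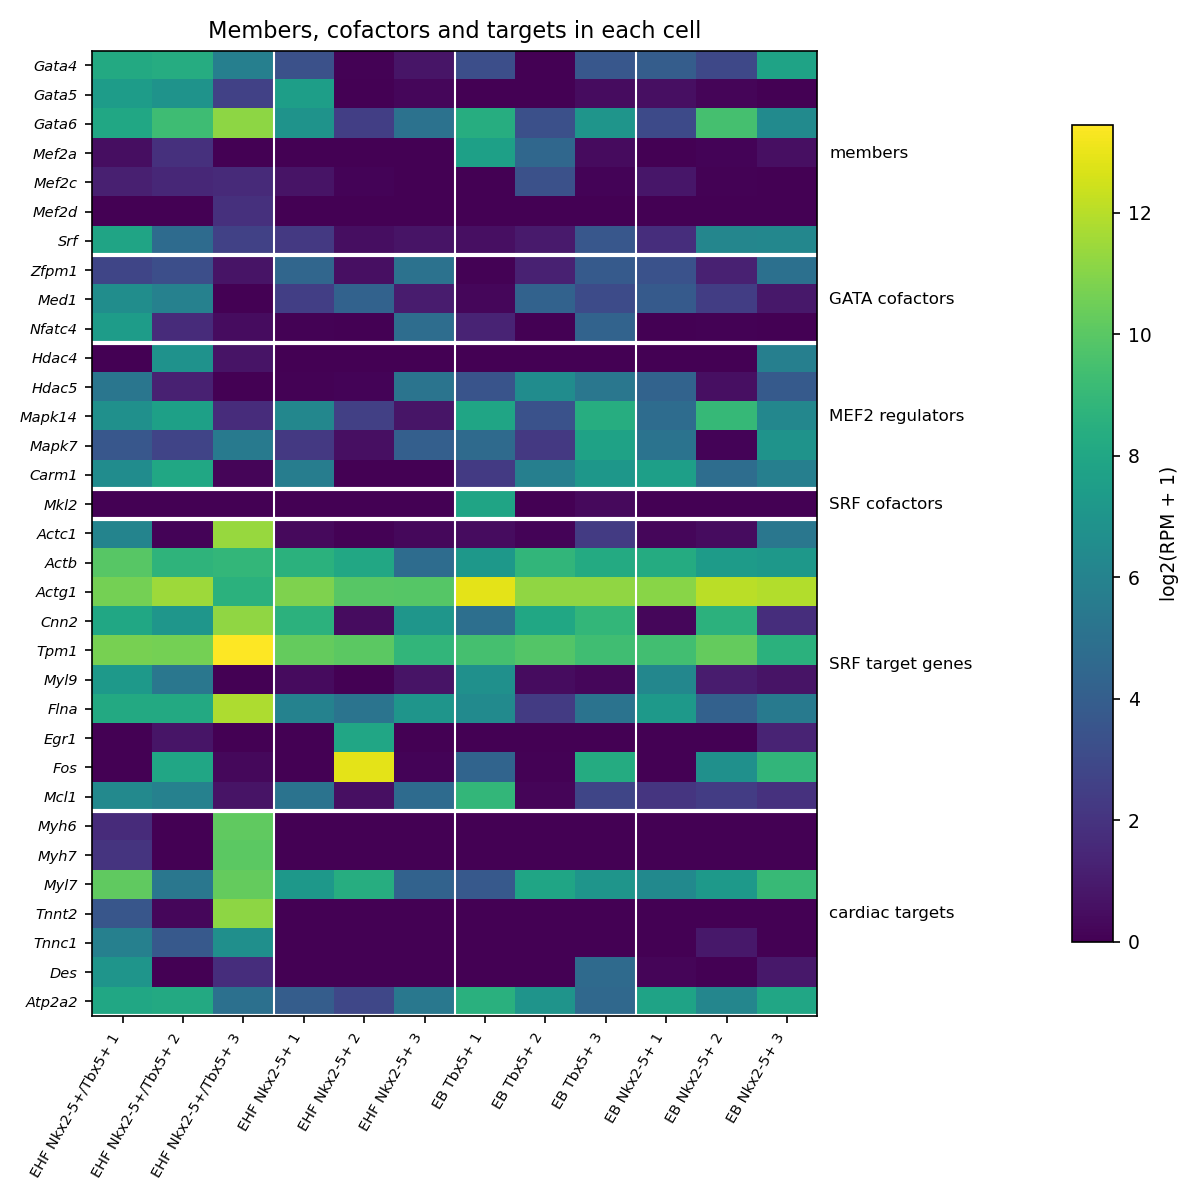
Values of log2(RPM + 1) of the 7 members and of the cofactors, SRF targets and cardiac targets with a mean of at least 10 RPM, in each of the 12 cells. EHF Nkx2-5+/Tbx5+ cell 3 had the highest Tnnt2, at 2270 RPM, and Actc1, at 2681 RPM, with Srf at 4.96 RPM and Gata6 at 2315 RPM.

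Set side by side, the comparisons showed Gata4, Gata6 and Srf standing the same way, higher in EHF Nkx2-5+/Tbx5+ CPs than in either neighbour and lower in EHF Nkx2-5+ CPs than in EB Nkx2-5+ CPs. The comparisons share cells, so each has its own values and no likeness between them was measured. In EHF Nkx2-5+/Tbx5+ CPs against the remaining 9 cells, 4 of the 7 members were at least 2-fold higher (Gata4, Gata5, Gata6 and Srf) and 1 lower (Mef2a), where 19.7% of all genes were higher and 31.5% lower. The median of the 7 was 1.77, and that of all genes averaging at least 10 RPM -0.27. For the 5 members averaging at least 10 RPM, the like basis, it was 1.85. The count was 3 higher without EHF Nkx2-5+/Tbx5+ cell 1, and none was lower without EB Tbx5+ cell 1.

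In EHF Nkx2-5+/Tbx5+ against EHF Nkx2-5+ CPs, which asks what goes with Tbx5 at 1 stage, 3 members were at least 2-fold higher (Gata4, Gata6 and Srf) and none lower, where 33.9% of all genes were higher and 20.2% lower. The median of all 7 members was 0.63, that of the 5 members averaging at least 10 RPM 3.06, and that of all genes averaging so much 0.25. Every EHF Nkx2-5+/Tbx5+ cell lay above every EHF Nkx2-5+ cell for 4 members, these 3 and Mef2c, which was the case for 5.61% of all genes averaging at least 10 RPM, Mef2c not being one of them. EHF Nkx2-5+/Tbx5+ against EB Tbx5+ CPs is a step in time along the Tbx5 line in which the Nkx2-5 label also changes. In this comparison 4 members were higher (Gata4, Gata5, Gata6 and Srf) and 1 lower (Mef2a), where 27.2% of all genes were higher and 25.3% lower. Gata4 and Gata5 were higher there in every cell, as were 4.47% of all genes. The median was 2.71 over all 7 members, 2.75 over the 5 averaging at least 10 RPM and 0.00 over all genes averaging so much.

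In EHF Nkx2-5+ against EB Nkx2-5+ CPs, the step in time without Tbx5, 1 member was at least 2-fold higher (Gata5) and 3 lower (Gata4, Gata6 and Srf), where 18.3% of all genes were higher and 35.9% lower. Of these 4 members only Srf stayed past 2-fold with each cell left out in turn. The median was -0.03 over all 7 members, of which Mef2c and Mef2d are held near 0 by the 10 RPM added. Over the 5 members averaging at least 10 RPM it was -2.17, beside -0.39 over all genes averaging so much. In EB Tbx5+ against EB Nkx2-5+ CPs 1 member was higher (Mef2a) and 2 lower (Gata4 and Srf), where 20.1% of all genes were higher and 26.8% lower. Mef2a passed the 10 RPM minimum of those genes only through EB Tbx5+ CPs. In this comparison the median was -0.01 over all 7 members, -0.77 over the 5 averaging at least 10 RPM and -0.10 over all genes averaging so much.

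**Figure D5:**
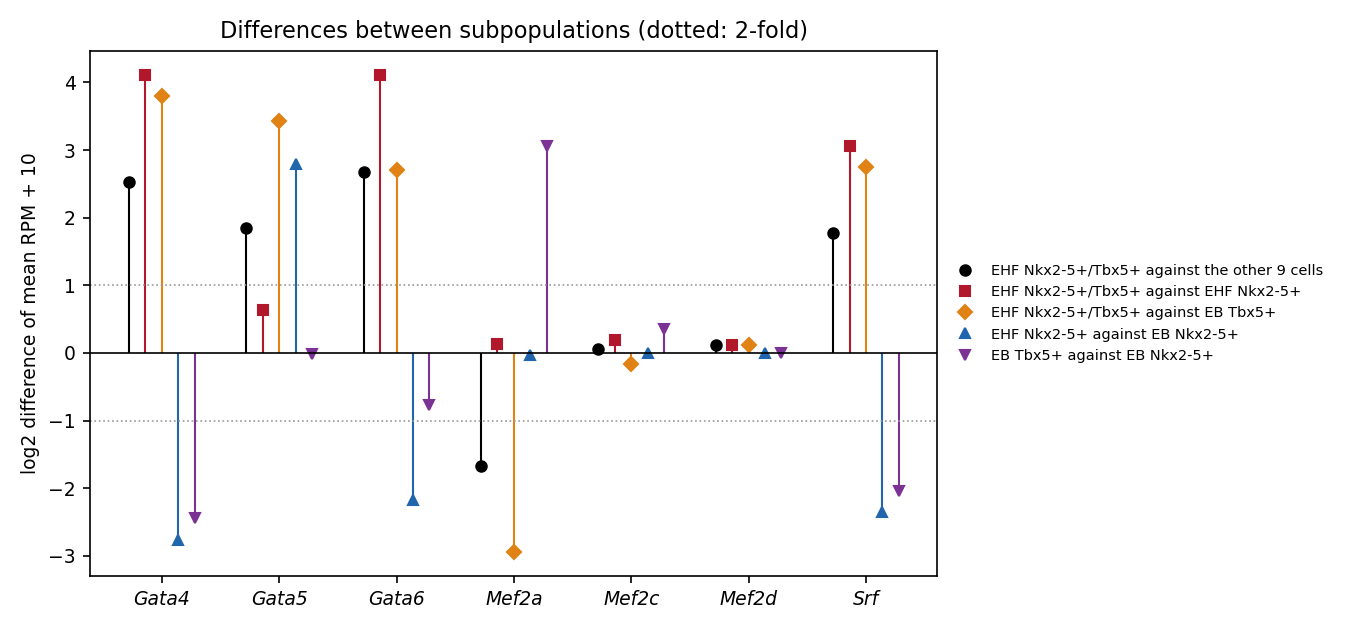
Log2 difference of mean RPM + 10 for each member in each of the 5 comparisons, with dotted lines at 2-fold. Gata4, Gata6 and Srf lay above 1 in the 3 comparisons of EHF Nkx2-5+/Tbx5+ CPs and below -1 in EHF Nkx2-5+ against EB Nkx2-5+ CPs, and Mef2c and Mef2d lay within 2-fold in all 5.

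At a cut of 1 RPM, members were found together most often in the EHF Nkx2-5+/Tbx5+ CPs. Of the 7, 5, 6 and 6 were at 1 RPM or more in the EHF Nkx2-5+/Tbx5+ cells and 4, 1 and 1 in the EHF Nkx2-5+ cells, while every EB cell had 3. EHF Nkx2-5+/Tbx5+ cell 3 had 6 members at that level with the fewest genes of all cells, and EHF Nkx2-5+ cells 2 and 3, with Gata6 as their only member, had 3073 and 4386 genes at 1 RPM or more. At 10 RPM or more the counts were 4, 4 and 2 in EHF Nkx2-5+/Tbx5+ cells and 2, 0 and 1 in EHF Nkx2-5+ cells. They were 2, 1 and 3 in EB Tbx5+ cells and 1, 2 and 3 in EB Nkx2-5+ cells. EHF Nkx2-5+/Tbx5+ cell 3 thus fell inside the range of the EB cells at that cut. Gata4 and Srf were at 1 RPM or more together in 8 cells, and no cell had Srf at that level without Gata4. Across the 12 cells, which share their amplification and their depth range, Spearman's rho was 0.72 for Gata4 and Srf, 0.60 for Gata4 and Gata5, 0.51 for Gata6 and Srf and 0.46 for Gata4 and Gata6. It was -0.51 for Gata5 and Mef2a. These are descriptions over 12 cells of 4 kinds.

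The spread over the 12 cells was near that of a usual gene for the GATA genes and wide for Mef2a. The coefficient of variation was 1.57 for Gata4, 1.69 for Gata6, 1.81 for Gata5, 1.89 for Srf and 3.05 for Mef2a, beside a median of 1.58 over the genes averaging at least 10 RPM. For Mef2a 92.5% of these genes had a smaller value, and for Gata4 49.4%. The genes whose order over the 12 cells was most like that of a member, among 5030, were Fam173a for Gata4 (Spearman's rho 0.92), Slit3 for Gata5 (0.90), Lman1 for Gata6 (0.90), Slc38a2 for Mef2a (0.90) and Dtd2 for Srf (0.92). Next came Kat7 and Gm2a for Gata4, Cxxc1 and Cdkn1c for Gata5, Brms1 and Polg for Gata6, Rpp25l and Pus1 for Mef2a and Mrps11 and Wwp2 for Srf. By Pearson's r of log2(RPM + 10), only Brms1 and Polg, both for Gata6, were among the first 3 again, and with so many genes and 12 cells a high value is no sign of a link.

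Of 11 other factors of the cardiac core, 5 averaged at least 10 RPM, of which 1 was at least 2-fold higher (Isl1, of the second heart field, at 1.94) and 2 were lower (Hand1, of the left ventricle, at -3.64 and Mesp1, of early cardiac mesoderm, at -3.80) when EHF Nkx2-5+/Tbx5+ CPs were set against the remaining 9 cells, where 19.7% of all genes were higher and 31.5% lower. Against EHF Nkx2-5+ CPs alone Hand1 lay at -0.11 and Mesp1 was at 0 against at most 0.113 RPM, so both differences came from EB cells. Isl1 was at 0.0528 RPM in EHF Nkx2-5+/Tbx5+ cell 1, and its difference was 0.98 without cell 2. It averaged 3.16 RPM in the remaining 9 cells and passed the 10 RPM minimum only through EHF Nkx2-5+/Tbx5+ CPs. Mesp1 was highest in EB Nkx2-5+ cell 3, at 532 RPM, the cell that alone among the 6 EB cells had Gata4 above 15 RPM. In EB Nkx2-5+ cell 1, with 225 RPM of Mesp1, Gata4 was at 14.6 RPM, and in EB Tbx5+ cell 2, with 317 RPM of Mesp1, it was at 0.

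Markers of other cell types stood high in some of the cells that carry these values. Of 7 listed endoderm markers 1, Epcam, reached 1 RPM, at 123 RPM in EB Tbx5+ cell 1 and 164 RPM in EB Nkx2-5+ cell 2, the cells with the most Gata6 in their subpopulations, and Sox17 was at most 0.0895 RPM in any cell. The summed endoderm markers ranged from 0 to 0.0574 RPM in EHF Nkx2-5+/Tbx5+ CPs and from 0 to 0.149 RPM in EHF Nkx2-5+ CPs. The same EB cells had 349 and 777 RPM of the summed blood and endothelium markers, 5 of 9 of which reached 1 RPM in some cell, led by Kdr at 339 and 395 RPM, a receptor that early cardiac mesoderm also has. EHF Nkx2-5+/Tbx5+ CPs had sums of 0.0860 to 41.8 RPM of these, EHF Nkx2-5+ CPs 0.536 to 499 RPM, EB Tbx5+ CPs 0.166 to 349 RPM and EB Nkx2-5+ CPs 59.6 to 777 RPM. The part of such cells in the Gata6 and Mef2a values of the EB stage was not tested. Of 4 neural markers Otx2 alone reached 1 RPM, at 11.2 RPM in EB Nkx2-5+ cell 3, and of 6 paraxial markers 4 did, with sums of at most 117 RPM in EHF Nkx2-5+/Tbx5+ CPs and 191 RPM in EB Nkx2-5+ CPs.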

How the data were processed

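Cells were lysed singly, their cDNA was amplified by PCR, tagmented with the Nextera kit and sequenced on an Illumina GA IIx. Per the submitters' notes, CASAVA 1.7.0 (step not stated) and Partek were used with mm10 (aligner not given in the sources used here). What the authors deposited was a signal per gene, reads per 1000000 aligned reads (RPM), in a sheet that holds 64 copies of its values, of which the first was used. Multiplied by the aligned reads of a cell, 96.3% of values of 0.5 to 20 reads were whole within 0.02. Of 14085 names, 22 turned into dates were left out, which left 14063 symbols. No count test was run, since each subpopulation is 1 sample with no embryo named. The differences, counts and background shares were computed with pandas 2.3.3 and numpy 2.4.6 in Python 3.11.15, intervals with scipy 1.17.1 and plots with matplotlib 3.10.9. The computation of the difference was tested on simulated data with counting error only, in which abundant genes were raised. That simulation held no other spread between cells, so it does not bear on values carried by a single cell. The members and the 11 gene lists were chosen with earlier results of these data known. By rule the text names all members, up to 4 genes per list with the largest differences, all cofactors, the label genes and the 3 genes most like each member; other list genes were named after their values were seen. Sequences and starts are RefSeq's (GRCm38.p6, the assembly of mm10), and overlaps are from GENCODE. Alternatives were 1 or 100 RPM added, log2 values averaged over cells, medians in place of means, RPM scaled anew after taking out the 100 most abundant genes, another minimum (none, or 50 RPM), and cells left out.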

Additional observations from a re-analysis of the deposited data

Results flagged for a closer look

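The stage difference ran in opposite directions with and without Tbx5 for 3 members, and the difference between the effects was not tested. These members were picked by this pattern, and the share of all genes showing it was not counted. EHF Nkx2-5+/Tbx5+ and EB Tbx5+ CPs differ in the Nkx2-5 label as well as in stage, with Nkx2-5 means of 113 and 0 RPM. The 2 cannot be told apart there. All 3 EHF Nkx2-5+/Tbx5+ cells lay above the EB Tbx5+ mean while all 3 EHF Nkx2-5+ cells lay below the EB Nkx2-5+ mean for Gata4, Gata6 and Srf. The log2 difference of EHF Nkx2-5+/Tbx5+ over EB Tbx5+ CPs exceeded that of EHF Nkx2-5+ over EB Nkx2-5+ CPs by 6.56 for Gata4, by 4.88 for Gata6 and by 5.11 for Srf. With single cells left out, a setting added after the values were seen, it was 4.43 for Gata4 without EB Nkx2-5+ cell 3. For Gata6 it was 2.54 without EB Nkx2-5+ cell 2 and 3.63 without EHF Nkx2-5+/Tbx5+ cell 3, and for Srf it was 3.16 without EHF Nkx2-5+/Tbx5+ cell 1. Without EB Nkx2-5+ cell 2, Gata6 in EHF Nkx2-5+ CPs lay at 0.17 from EB Nkx2-5+ CPs, so the directions were no longer opposite.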

How the results depend on the processing

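With 100 RPM added, the members at least 2-fold higher and lower were 2 and 0 in EHF Nkx2-5+/Tbx5+ CPs against the remaining 9 cells, 2 and 0 against EB Tbx5+ CPs, 0 and 1 in EHF Nkx2-5+ against EB Nkx2-5+ CPs and 0 and 0 in EB Tbx5+ against EB Nkx2-5+ CPs. In EHF Nkx2-5+/Tbx5+ against EHF Nkx2-5+ CPs, Srf was then at 0.88 in place of 3.06 and no longer past 2-fold. With 1 RPM added, 5 were higher in EHF Nkx2-5+/Tbx5+ than in EHF Nkx2-5+ CPs and 2 in EB Tbx5+ than in EB Nkx2-5+ CPs. By the mean of log2 values and by the median, 0 were lower in EHF Nkx2-5+/Tbx5+ CPs against the remaining 9. By the median, 0 were higher in EHF Nkx2-5+ than in EB Nkx2-5+ CPs and 1 was lower in EB Tbx5+ than in EB Nkx2-5+ CPs. Apart from the larger or smaller value added to low means, the cause was not tested. With 1 cell left out, the counts higher and lower were 3 to 4 and 0 to 1 against the remaining 9 cells, 3 to 4 and 0 to 0 against EHF Nkx2-5+ CPs, 3 to 4 and 0 to 1 against EB Tbx5+ CPs, 0 to 1 and 2 to 3 in EHF Nkx2-5+ against EB Nkx2-5+ CPs, and 1 to 2 and 2 to 3 in EB Tbx5+ against EB Nkx2-5+ CPs. Against the remaining 9 cells the sign turned for Mef2a by the median (0.043) and for Srf, at -0.18 to 2.28 with 1 cell left out, lowest without EHF Nkx2-5+/Tbx5+ replicate 1. In EHF Nkx2-5+ against EB Nkx2-5+ CPs it turned for Gata5, at -0.016 to 3.30 and lowest without EHF Nkx2-5+ replicate 1, and for Gata6, at -3.28 to 0.17 and highest without EB Nkx2-5+ replicate 2. In the gene lists, against the remaining 9 cells and with 1 cell left out (added after the values were seen), the sign turned for Gata3 (-2.64 to 1.13), Nfatc4 (-0.44 to 2.69), Hdac4 (-0.65 to 2.27), Myl9 (-0.056 to 1.88), Egr1 (-2.01 to 0.0059) and Des (-0.20 to 2.57). Of the members' values of differences past 2-fold, 142 of 150 with 1 cell left out and 103 of 120 under the other alternatives stayed past it. Rescaling moved the median of all genes by -0.16 to 0.13 and changed no count of members, nor did dropping the cells poorest in genes, EHF Nkx2-5+/Tbx5+ cell 3 with EHF Nkx2-5+ cell 2. With no minimum, the share of genes at least 2-fold apart was 8.07% to 15.3% on either side. No paired analysis was possible because the results come from no test and the labels do not say that a replicate number is shared between subpopulations. Values under 3 reads cannot be told from 0 at this depth.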
